A study of Mus musculus with 6 samples.

Results

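Mitochondrial ribosomal protein genes were followed in 4T1-tetL1(GLucAI) cells, a line of BALB/cfC3H mouse breast carcinoma cells with an inducible LINE-1 (L1) retrotransposon cassette. Members were taken as every gene whose symbol begins with Mrpl or Mrps followed by a digit, with pseudogenes left out, which gave 77 of the 24421 genes listed. By symbol, 48 of them belong to the large (Mrpl) and 29 to the small (Mrps) subunit. The protein Mrpl58 is listed under its older symbol, Ict1, and is therefore described with the related genes.

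Mitochondria carry their own ribosomes, which translate the few mRNAs of the mitochondrial genome, all of them for subunits of the respiratory chain and ATP synthase. Their ribosomal RNAs are transcribed inside the organelle, whereas all their proteins come from nuclear genes, are made in the cytosol and are imported. The small subunit binds mRNA and reads the code, and the large subunit forms the peptide bond and holds the exit tunnel. Some of the proteins descend from bacterial ribosomal proteins and others are found only in mitochondrial ribosomes. Tetracyclines, the drug class of doxycycline, bind the small subunit of bacterial ribosomes and also inhibit translation in mitochondria.

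Total RNA was sequenced after depletion of ribosomal RNA from 3 untreated samples, whose treatment tag reads vehicle, and 3 samples exposed to 400 ng/mL doxycycline for 48 h. Both groups carried the same cassette, integrated by PiggyBac transposition into a stable population. It holds a Tet-On transactivator and a blasticidin resistance gene driven by the EF1α promoter. A bidirectional doxycycline-responsive promoter drives a recoded mouse L1 and firefly luciferase. The L1 carries a Gaussia luciferase reporter in the opposite orientation, with an SV40 promoter of its own. The comparison addresses the state of the cells after L1 induction. No group received doxycycline without the cassette, so L1 induction and the drug itself cannot be told apart, and transcripts of the cassette were not analysed here, which leaves the treatment label without a check of its own.

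The libraries held 31653464 to 43631312 reads assigned to genes. The labelled epithelial origin was matched by keratins Krt8 (381 to 453 CPM, read counts scaled to a common library size) and Krt18 (615 to 669 CPM) and by the adhesion proteins Cdh1 (301 to 323 CPM) and Epcam (32.0 to 37.1 CPM). Of the other epithelial markers, Krt19 (47.5 to 65.7 CPM) was called lower after doxycycline, with a log2 fold change of -0.31 (SE 0.06, adjusted p = 0.00782, edgeR), and the claudin Cldn7 was low, at 4.25 to 6.14 CPM. The 6 markers summed to 1432 to 1484 CPM in untreated and to 1397 to 1541 CPM in doxycycline libraries. The summed level of 4 fibroblast markers reached at most 1.14 CPM and that of 2 endothelial markers 0.679 CPM. The 3 leukocyte markers summed to between 8.83 and 11.6 CPM, of which Cd68 made up 8.54 to 11.1 CPM, while Cd3e had no count in 5 of the 6 libraries. In bulk RNA of this kind, fewer cells that express a gene and less of its RNA per cell cannot be told apart. The paper calls the replicates biological triplicates, but nothing in the labels ties them to separate experiments. The p-values therefore measure the spread between these libraries.

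All 77 members were well expressed. The lowest count of a member in any library was 227 (Mrpl23) and the highest 5876 (Mrpl13). The mean level ran from 7.56 to 128 CPM in the large subunit, with a median of 35.1 CPM, and from 7.29 to 62.3 CPM in the small subunit, with a median of 35.7 CPM. The median spread of a member between libraries of the same group was 0.09 (SD on the log2 scale), against 0.10 for all 13084 genes tested.

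Although the proteins are assembled in equal numbers, with the stalk protein Mrpl12 as an exception, their mRNA levels per kilobase of transcript differed widely. Per length, levels ran from 3.53 to 154 RPKM (CPM per kilobase of transcript) over the large-subunit members, a 43.6-fold range, and from 5.87 to 89.0 RPKM over the small-subunit members, a 15.2-fold range. Medians were close, at 22.7 RPKM for the large and 21.0 RPKM for the small subunit. The highest levels per length in the large subunit were those of Mrpl33 (154 RPKM) and Mrpl13 (105 RPKM), both related to bacterial proteins, followed by the mitochondria-specific Mrpl42 (94.8 RPKM) and Mrpl52 (71.1 RPKM) and by Mrpl30 (70.6 RPKM). In the small subunit these places were taken by Mrps21 (89.0 RPKM), Mrps6 (57.3 RPKM), Mrps10 (48.5 RPKM), Mrps15 (47.2 RPKM) and Mrps24 (41.5 RPKM), each related to a bacterial protein. Lengths were those of the principal coding transcript. With the median transcript length, 4 of the 5 leading genes of each subunit were also among the leading 5. The medians then stood at 24.5 RPKM for the large and 25.1 RPKM for the small subunit. The lowest values, of Mrpl48 and Mrps25, went with long principal transcripts, of 4285 and 6073 bases. The fold ranges therefore depend in part on the transcript chosen, and they were not recomputed with other lengths.

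Genes of mitochondrial ribosomal proteins are known for compact promoters that bind nuclear respiratory factors. A RefSeq window from 250 bases before to 50 after the start was matched for 68 of the 77 members (88.3%, build GRCm38.p6). A gene with several windows, such as Mrpl48 with 4, was counted once, as holding a motif if any of its windows did. The letters CCGGAAG, the core bound by ETS factors such as GABP, were present on either strand in 25 of the 68 members. This is 36.8%, against 20% of tested genes with a window and 9.93% of all genes with a window. The letters CGCATGCG, the core of the factor NRF1, which read the same on both strands, were present in 7 (10.3%, against 4.35% and 2.07%). AAGATGGC, the core of YY1, was present in 12 (17.6%, against 5.26% and 3.19%), and at least 1 of these motifs, of which the ETS and YY1 cores can overlap by their outer letters, in 37 (54.4%, against 27.1% and 14.1%).

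Windows of 30 bases are shown for members from both ends of the range of log2 fold changes and for the decoding protein Mrps12. They let each motif be read in its surroundings. The capitals mark the motif, and each line reads along the strand of the gene.
Mrpl37, YY1 core, chr4:107066822-107066851, minus strand: ctgcacgggcaAAGATGGCggcgtccaggt
Mrpl49, YY1 core, chr19:6057721-6057750, minus strand: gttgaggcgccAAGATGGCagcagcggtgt
Mrpl9, NRF1 core, chr3:94443298-94443327, plus strand: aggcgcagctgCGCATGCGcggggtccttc
Mrps18b, NRF1 core, chr17:35916646-35916675, minus strand: aaacggcccgaCGCATGCGcactgggagca
Mrps18c, ETS core on the opposite strand, chr5:100798591-100798620, plus strand: cgggtcacgtgaCTTCCGGcccgggaagcg
Mrps12, ETS core, chr7:28741803-28741832, minus strand: taaggaggaaccCCGGAAGgggctggaggt

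None of the 77 members passed the threshold in either direction after doxycycline. By the quasi-likelihood test of edgeR, 0 members were called higher and 0 lower at an adjusted p under 0.05. Over all genes tested, 0.925% were called higher (121 genes) and 2.16% lower (283 genes), a split that became 480 higher and 450 lower after a correction for GC content and length. The smallest adjusted p of a member was 0.221, for Mrpl37, a mitochondria-specific large-subunit protein. At an unadjusted p under 0.05 there were 4 members, all with positive log2 fold changes (Mrps35, Mrps18b, Mrpl37 and Mrpl38), or 5.19% against 16.2% of all genes tested. DESeq2 and limma voom likewise called 0 members, with 2 and 4 at an unadjusted p under 0.05.

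The intervals around these values were narrow. Log2 fold changes of doxycycline against untreated cells lay between -0.20 (Mrps36) and 0.17 (Mrpl48), which is a decrease of 13.1% to an increase of 12.7%, and 60 of the 77 were smaller than 0.1 in size. The 95% interval of every member stayed within 0.5 of no change on the log2 scale, and that of 55 members within 0.25. The outermost bounds were -0.45, or 0.732-fold, for Mrps36 and 0.40, or 1.32-fold, for Mrpl46. The SD of the 77 log2 fold changes, 0.08, was close to the median standard error (SE) of a single one, 0.07.

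**Figure D1:**
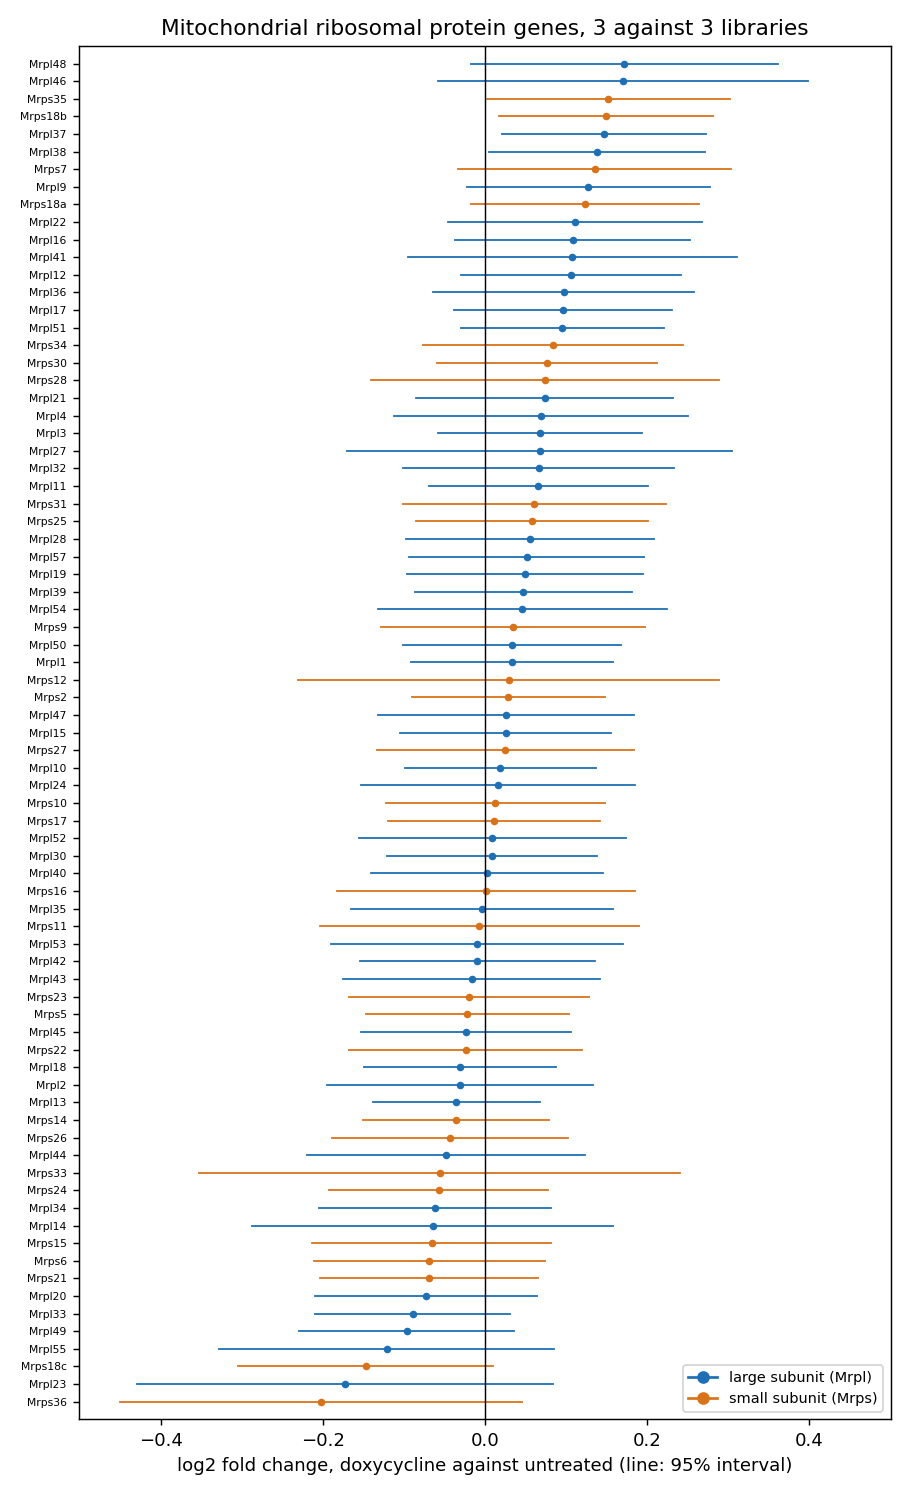
Log2 fold change of each of the 77 members, doxycycline against untreated (horizontal axis), ordered by value, with points for the estimate of edgeR and lines for its 95% interval; blue marks the large and orange the small subunit. The estimates form a continuous series from -0.20 to 0.17, and all lines stay between -0.5 and 0.5.

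Log2 fold changes were positive in 48 members and negative in 29, with a median of 0.03, while the median of all genes tested was 0.00 and 50.8% of them were positive. In the large subunit 32 were positive and 16 negative, with a median of 0.03. In the small subunit 16 were positive and 13 negative, with a median of 0.01. These medians depended on single libraries. The large-subunit median was 0.0561 without untreated replicate 1, 0.0150 without doxycycline replicate 2 and 0.0644 after the correction for GC content and length, and the small-subunit median ranged from -0.0106, without untreated replicate 2, to 0.0293, after that correction. Under that correction the median of all genes tested moved as well, from 0.0025 in the main fit to 0.0188. When single libraries were left out, 38 of the 77 members changed sign in at least 1 case, all with log2 fold changes of at most 0.0742 in size. The medians of both subunits differed by 0.02. Across the alternatives this difference ranged from 0.0164 to 0.0404, and it was 0.0332 when Mrps30 and Mrps18a, whose proteins are located in the large subunit of the mammalian structure, were counted there and Mrps36 was left out.

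Summed over members, the subunit totals moved less between groups than between replicates. Large-subunit transcripts summed to 1937, 1819 and 1847 CPM in the untreated libraries and to 1863, 1939 and 1909 CPM in the doxycycline libraries. The small-subunit sums were 1011, 978 and 971 CPM against 978, 1004 and 1003 CPM. Both groups overlapped in each sum: the mean was 1868 ± 61.8 CPM in untreated and 1904 ± 38.7 CPM in doxycycline cells for the large subunit (SD, n = 3), and 987 ± 21.4 against 995 ± 14.8 CPM for the small one. The ratio of large to small sums was 1.92, 1.86 and 1.90 in untreated and 1.91, 1.93 and 1.90 in doxycycline libraries, or 1.89 ± 0.0292 against 1.91 ± 0.0161 (SD, n = 3).

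**Figure D2:**
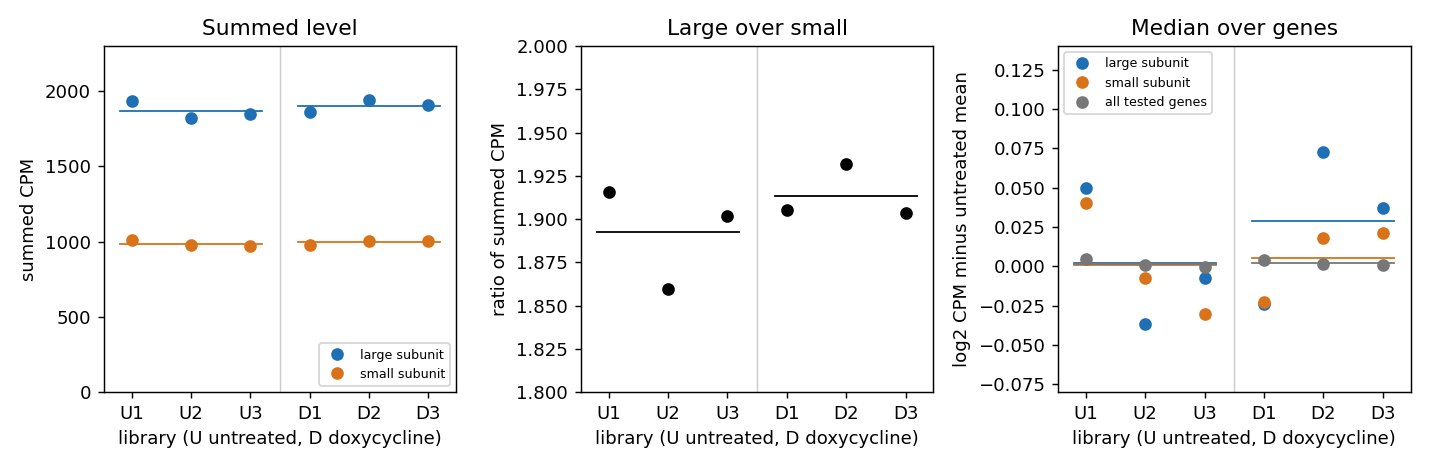
For each library (U1 to U3 untreated, D1 to D3 doxycycline), the summed CPM of the large (blue) and small (orange) subunit, the ratio of both sums on an axis that starts at 1.8, and the median over members of the log2 CPM minus the mean of the untreated libraries, with all genes tested in grey; lines mark group means. The sums differ more between replicates than between groups, and the members' medians spread while those of all genes stay near 0.

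The median level over members differed as much between libraries of the same group as between groups. Relative to the mean of the untreated libraries, the median member stood at 0.04, -0.02 and -0.02 on the log2 scale in the untreated libraries and at -0.02, 0.06 and 0.03 in the doxycycline libraries, while the median of all genes stayed within 0.005 of 0 in each. Untreated library 1 and doxycycline libraries 2 and 3, which have the 3 highest medians, are also the 3 most deeply sequenced, and a part of depth in this order was not tested. Untreated library 1 gave the highest of the 6 values for 23 members and doxycycline library 2 for 25. After correction for GC content and length, the same 3 libraries still had the highest medians, at 0.0208, 0.0753 and 0.0440.

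**Figure D3:**
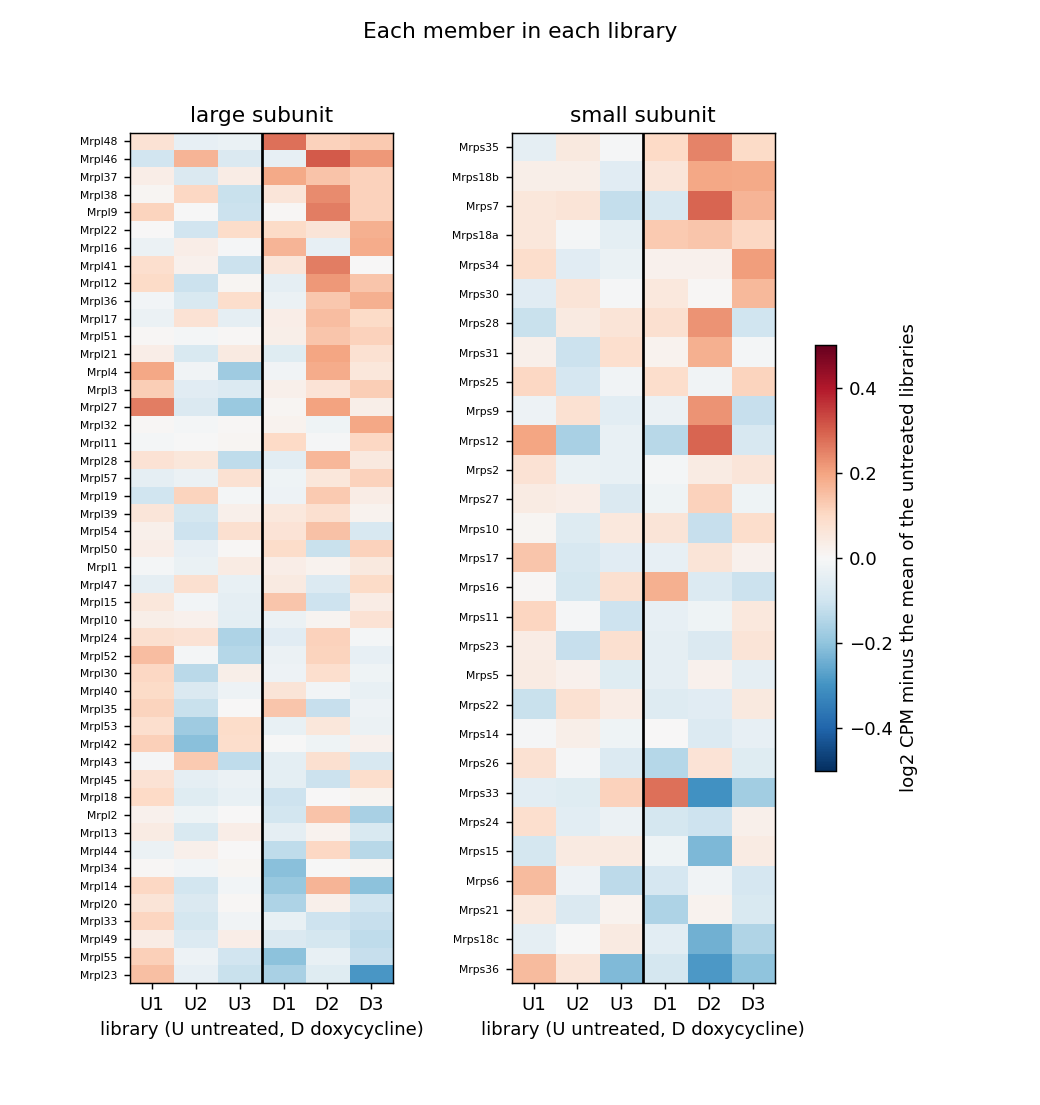
Log2 CPM of each member (rows, by subunit and ordered by fold change) in each of the 6 libraries (columns) minus the mean of the untreated libraries, with red for higher and blue for lower. Untreated library 1 and doxycycline library 2 hold the most red rows, with the highest value for 23 and 25 members.

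Of the 77 members, 6 had all doxycycline values above all untreated values (7.79%, against 10.1% of all genes tested) and 2 had all of them below (2.60%, against 11.1%). The 6 were Mrpl48, Mrps35, Mrps18b, Mrpl37, Mrps18a and Mrpl51, and the 2 were Mrpl49 and Mrps18c. Neither share exceeded that of genes at large, so the members below are given for their values and not as calls.

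Among large-subunit members, Mrpl37 had the smallest p. Its level was 44.6, 41.4 and 44.8 CPM in untreated and 49.6, 48.1 and 47.2 CPM in doxycycline libraries, with a log2 fold change of 0.15 (SE 0.06, 95% interval 0.02 to 0.27, adjusted p = 0.221, edgeR). All 3 doxycycline values lay above the untreated ones. Mrpl48, a protein of the central protuberance, the knob of the large subunit that faces the small one, measured 15.0, 13.8 and 13.9 against 17.2, 15.4 and 15.6 CPM, again without overlap, and had a log2 fold change of 0.17 (SE 0.09, adjusted p = 0.362). Its neighbours in the protuberance, Mrpl46 and Mrpl38, did overlap between groups. Mrpl46 measured 11.2, 13.5 and 11.4 against 11.6, 14.8 and 13.9 CPM (log2 fold change 0.17, SE 0.11), and Mrpl38 measured 58.0, 62.0 and 53.4 against 60.2, 67.9 and 62.6 CPM (0.14, SE 0.06, adjusted p = 0.287).

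At the other end of the large subunit, Mrpl49, a mitochondria-specific protein, measured 38.9, 36.1 and 38.7 CPM in untreated and 36.0, 35.6 and 34.7 CPM in doxycycline libraries, with a log2 fold change of -0.10 (SE 0.06, adjusted p = 0.488, edgeR). The groups did not overlap, but the gap was narrow, from 36.1 to 36.0 CPM. Mrpl33, the most abundant member per length, had 81.6, 71.3 and 75 against 73.8, 70.6 and 70.0 CPM (log2 fold change -0.09, SE 0.06). Mrpl20, which has a bacterial counterpart, and Mrpl55 stood at -0.07 and -0.12. Mrpl23, at a mean of 7.56 CPM, had the lowest value of the subunit, -0.17 (SE 0.12), with overlap between groups. It lies below the 10 CPM set for naming genes by their fold change and is named after its value was seen.

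Members with well-known functions in the large subunit were not called either. Mrpl3, which reaches towards the site of peptide bond formation, had a log2 fold change of 0.07 (SE 0.06). Mrpl12, the stalk protein that recruits translation factors, stood at 0.11 (SE 0.07), from 77.0 ± 5.34 CPM in untreated to 82.8 ± 7.48 CPM in doxycycline cells (SD, n = 3). Mrpl44, which has a ribonuclease III-like fold, stood at -0.05 (SE 0.08), and Mrpl9, related to bacterial L9 and among the 8 highest, at 0.13 (SE 0.07). With single libraries left out, Mrpl12 ranged from 0.0489 to 0.1744 and Mrpl9 from 0.0584 to 0.1862. The abundant Mrpl13, Mrpl42, Mrpl52 and Mrpl30 lay at -0.04, -0.01, 0.01 and 0.01.

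Small-subunit members gave the same picture. Mrps35, which is specific to mitochondria, measured 26.3, 28.1 and 27.1 CPM in untreated and 29.1, 32.3 and 29.0 CPM in doxycycline libraries, without overlap, and had a log2 fold change of 0.15 (SE 0.07, adjusted p = 0.298, edgeR). Mrps7, an RNA-binding protein of the head of the subunit, measured 40.9, 41.1 and 36.2 against 37.2, 48.1 and 44.2 CPM (0.14, SE 0.08). The groups overlapped, with the first doxycycline library among the low values. Without that library, the log2 fold change of Mrps7 was 0.23 with an adjusted p of 0.0729, the smallest of any member under the alternatives run, and without doxycycline replicate 2 it was 0.05.

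Other small-subunit members with known roles were not called either. Mrps12, which contacts the paired codon and anticodon, had a log2 fold change of 0.03 (SE 0.12), and its values of 12.0, 9.35 and 10.2 CPM in untreated and 9.50, 12.8 and 9.90 CPM in doxycycline libraries crossed. Mrps5 and Mrps2, both related to bacterial proteins, stood at -0.02 and 0.03 (SE 0.06 each). Mrps22, Mrps34 and Mrps16, in which inherited variants cause respiratory chain deficiency in people, stood at -0.02, 0.08 and 0.00. Of the small-subunit members most abundant per length, Mrps21, Mrps6, Mrps15 and Mrps24 lay at -0.07, -0.07, -0.07 and -0.06 and Mrps10 at 0.01.

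The 3 paralogs of the S18 family differed in sign. In the structure Mrps18c takes the place of bacterial S18, while Mrps18a, in the large subunit, and Mrps18b, in the small one, hold positions that have no bacterial equivalent and are counted here as mitochondria-specific. Mrps18a measured 30, 28.7 and 27.9 CPM in untreated and 31.6, 31.7 and 31.0 CPM in doxycycline libraries. Mrps18b measured 40.8, 40.8 and 38.5 against 41.7, 45.7 and 45.7 CPM. Mrps18c measured 25.6, 26.4 and 27.3 against 25.5, 22.4 and 23.8 CPM. In Mrps18a and Mrps18b all doxycycline values were above the untreated ones, and in Mrps18c all were below. The log2 fold changes were 0.12 (SE 0.07), 0.15 (SE 0.06) and -0.15 (SE 0.08), with adjusted p of 0.382, 0.234 and 0.345 by edgeR, so none of them passed, and the differences among the paralogs were not tested.

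Symbols do not always follow the structure. Mrps30, whose protein is located in the large subunit, had a log2 fold change of 0.08 (SE 0.07). Mrps36, a component of the oxoglutarate dehydrogenase complex and not of the mammalian mitoribosome, had the lowest value of all members at -0.20 (SE 0.12, adjusted p = 0.422, edgeR), from 10.9, 10.2 and 8.41 CPM in untreated and 9.21, 8.03 and 8.52 CPM in doxycycline libraries, which overlapped. Its value was -0.12 without untreated replicate 1, where Mrps18c was lowest at -0.17, and -0.30 without untreated replicate 3. Without untreated replicate 2 or doxycycline replicate 2, Mrpl23 was lowest. When members were grouped by structure and origin, 0 were called in each class. The median log2 fold change was 0.03 over 29 large-subunit members with a bacterial counterpart (20 positive) and 0.05 over 20 mitochondria-specific ones (14 positive). It was 0.00 over 16 small-subunit members with a counterpart (8 positive) and 0.04 over 10 specific ones (6 positive).

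Genes that act with the mitoribosome were also without calls. In edgeR, 0 of 5 mitoribosomal proteins with other symbols passed the threshold (median log2 fold change 0.02), and Gadd45gip1, a large-subunit protein, had the highest value, 0.19 (adjusted p = 0.226). The next by p, the small-subunit proteins Chchd1 and Aurkaip1, stood at 0.13 (adjusted p = 0.406) and -0.11 (adjusted p = 0.519). Ict1, the peptidyl-tRNA hydrolase now named Mrpl58, measured 17.5, 15.9 and 15.4 CPM in untreated and 19.9, 18.3 and 19.9 CPM in doxycycline libraries, without overlap, and its 0.25 (SE 0.09, adjusted p = 0.129) exceeded that of each of the 77 members. Of 16 translation factors, 13 had positive values, with a median of 0.04. The elongation factor Gfm1 stood at 0.12 (adjusted p = 0.230), the elongation factor Tufm at 0.09 and the recycling factor Mrrf at 0.16.

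Among 28 genes of mitoribosome assembly and ribosomal RNA modification, 21 had positive values, with a median of 0.05. Rnmtl1, a methyltransferase of the large ribosomal RNA now named Mrm3, had 10.4, 8.90 and 8.81 CPM in untreated and 10.8, 12.6 and 12.4 CPM in doxycycline libraries, a log2 fold change of 0.35 (SE 0.11, adjusted p = 0.0934, edgeR). The helicase Ddx28 stood at 0.20 and the RNA-binding protein Fastkd2 at 0.14, both with no overlap between groups. Of 13 regulators of mitochondrial biogenesis listed, 12 passed the filter on counts. Of these 12, 6 were positive and 6 negative, with a median of 0.01. The coactivator Pprc1 measured 205, 200 and 197 CPM in untreated against 207, 238 and 231 CPM in doxycycline libraries, a log2 fold change of 0.17 (SE 0.05, adjusted p = 0.0806). Gabpb2, a subunit of the ETS-family factor GABP, stood at 0.13 (adjusted p = 0.129) and Yy1, a zinc finger factor, at -0.14 (adjusted p = 0.441). At an unadjusted p under 0.05 there were 1 of the 5, 1 of the 16, 3 of the 28 and 2 of the 12 genes of these lists. These are 20%, 6.25%, 10.7% and 16.7%, against 16.2% of all genes tested. DESeq2 and limma voom also called 0 in each list.

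The calls that did appear rested on the setting. With no filter on low counts Pprc1 passed (adjusted p = 0.0285). Without doxycycline replicate 1, Pprc1 (adjusted p = 0.00679) and Rnmtl1 (0.0410) passed, and without doxycycline replicate 2, Gabpb2 did (0.0126, all by edgeR). The genes called higher over the whole table numbered 210 (1.19%), 207 (1.56%) and 269 (2.03%) in these settings, in that order. After the correction for GC content and length, which was added after the data were seen, Pprc1, Gabpb2, Rnmtl1, Fastkd2 and Gfm1 passed, while the genes called higher over the whole table numbered 480 (3.67%). The members at an unadjusted p under 0.05 numbered 11 under this correction (14.3%, against 20.9% of all genes tested), with 0 called.

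For comparison, 46 of 78 cytosolic ribosomal protein genes had positive values and 32 negative ones, with a median log2 fold change of 0.02, and 1 was called higher: Rpl3, at 0.18 (adjusted p = 0.0245, edgeR). The median over the 77 mitochondrial members, 0.03, was 0.0507 without untreated replicate 1, 0.0083 without doxycycline replicate 2 and 0.0428 after the correction for GC content and length. With that correction the median of all genes tested was 0.0188, against 0.0025 in the main fit. The cytosolic median was not computed under these alternatives.

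**Figure D4:**
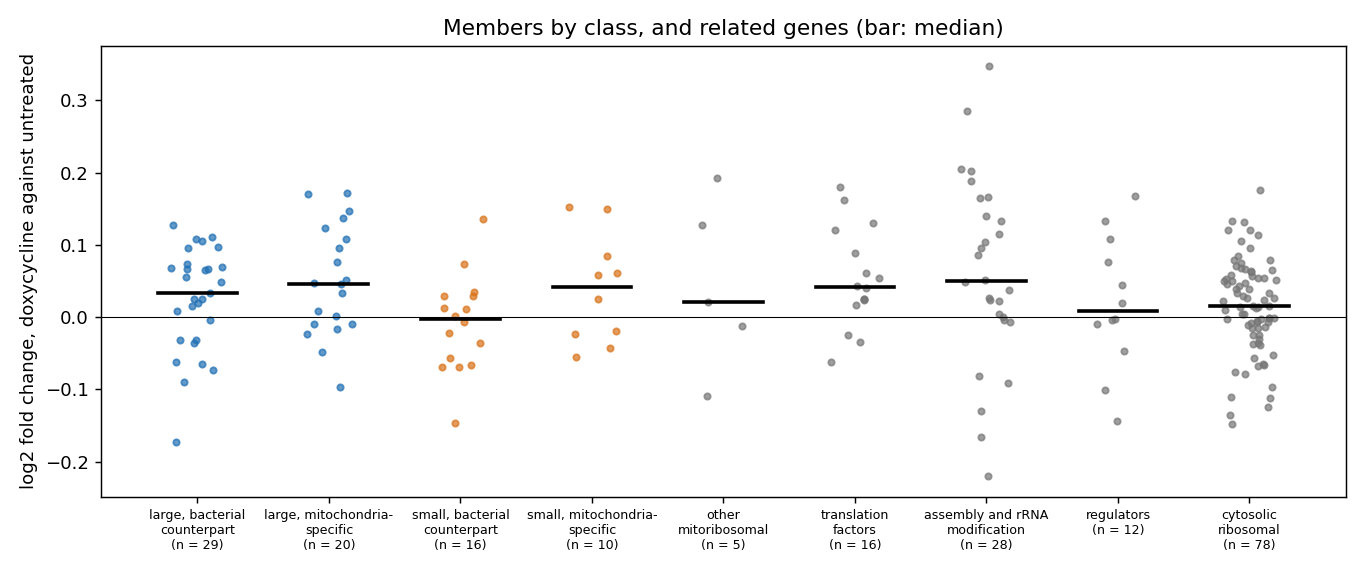
Log2 fold change, doxycycline against untreated (vertical axis), of members by subunit and origin of the protein (blue large, orange small subunit) and of related genes and cytosolic ribosomal proteins (grey). Each point is a gene and each bar the median of its list. Mrps36 and Mrpl55 fall in none of these classes and are not shown. All medians lie within 0.05 of 0, and the widest scatter is in the 28 assembly and rRNA modification genes, up to 0.35.

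The YY1 core was found in members with positive and in members with negative log2 fold changes, none of them called. Mrpl37 (0.15) and Mrpl49 (-0.10) both held the YY1 core 26 and 16 bases after the start. The median log2 fold change was 0.01 in the 25 members with the ETS core and 0.02 in the others with a window. It was 0.03 in the 12 members with the YY1 core against 0.01 without it, and 0.10 in the 7 with the NRF1 core against 0.01. All 7 with the NRF1 core had positive values, from 0.02 (Mrpl10) to 0.15 (Mrps18b), and 48 of all 77 members did. A link between motif and response was not tested. A match of letters is a description and not a bound site.

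Some members start back to back with another gene. In GENCODE, a protein-coding gene on the other strand started between 1000 bases upstream of and 100 bases inside 19 of the 77 members (24.7%), against 11.4% of the 11797 protein-coding genes tested, at distances of 26 to 935 bases. Partners included Ndufs6, a subunit of respiratory complex I, whose start lies 29 bases inside Mrpl36, and Sars2, the mitochondrial seryl-tRNA synthetase, 172 bases from Mrps12. Fau, which encodes a protein of the cytosolic ribosome, began 59 bases from Mrpl49. The smallest adjusted p of a partner was 0.0900, for Pnpla7 beside Mrpl41 (log2 fold change 0.28, edgeR), and 13 of the 19 pairs shared the sign of the log2 fold change. The members without overlap on the low side were among the pairs that did not: Mrps18c stood at -0.15 and its partner Helq, a DNA helicase, at 0.23 (adjusted p = 0.102), and Mrpl49 at -0.10 with Fau at 0.10.

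A large- and a small-subunit gene also face each other on chromosome 7. In RefSeq, Mrpl46 (chr7:78775341-78783089, minus strand) and Mrps11 (chr7:78783131-78792988, plus strand) are separated by 41 bases, in which none of the 3 motifs was found. The window of Mrps11 does hold a YY1 core on the opposite strand, 107 bases before its start and within the span of Mrpl46. In GENCODE their starts overlap by more than the 100 bases allowed, so neither is among the 19. Mrpl46 had a log2 fold change of 0.17 (SE 0.11) and Mrps11 of -0.01 (SE 0.09). In all, the GENCODE spans of 26 of the 77 members overlap another gene, 5 on the same and 23 on the other strand. Mrpl48, Mrpl49, Mrps18a, Mrps7, Mrpl9, Mrpl33, Mrpl13 and Mrpl44 are among the latter, and Mrps6, Mrps24 and Mrpl51 among the former. The strand setting of the counting is not given in the sources used here, so reads of overlapping genes may have been counted for either.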

How the data were processed

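Per the labels, reads came from total RNA depleted of ribosomal RNA. The authors aligned them with STAR to GRCm38 (mm10), counted them per gene with featureCounts (Subread 1.6.2 in the submitters' processing notes) and deposited raw read counts without normalization. Groups followed the sample titles, and 0 columns were left unmatched. The chi-square statistic per degree of freedom between replicates was 6.14 to 22.1, so each library was counted once.

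All 24421 genes were fitted with edgeR 4.0.16 (R 4.3.3): filterByExpr (13084 genes kept), TMM scaling, robust quasi-likelihood test on group, Benjamini-Hochberg adjustment at 0.05. The SE is the absolute log2 fold change over the square root of F. CPM used TMM-scaled totals, and RPKM the principal coding transcripts of GENCODE M21. DESeq2 1.42.0 and limma 3.58.1 served as alternatives, with other scalings, filters, a replicate block, leaving out each library and a loess correction for GC content and length. The code was tested on simulated data. Members and lists were chosen with earlier results of these data known.

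Genes were named if called, if among the 8 highest or 8 lowest log2 fold changes at a mean of at least 10 CPM, if among the 5 most abundant per length in a subunit, or if in a set chosen for known roles. Of related lists without a call, the 3 genes with the smallest p were named. Classes by origin follow general knowledge of the mammalian structure, with Mrpl55 unclassed. Intervals are for the log2 fold change of each gene alone, rest on the spread between libraries and are not adjusted for the number of genes.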

Additional observations from a re-analysis of the deposited data

How the results depend on the processing

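No member was called by any of 15 alternatives, in which the smallest adjusted p of a member was 0.0729 (without doxycycline replicate 1) and 0.0766 (GC content and length correction, Mrpl38). The median log2 fold change ranged from 0.0083 to 0.0507 over all members, from 0.0150 to 0.0644 in the large and from -0.0106 to 0.0293 in the small subunit. The upper ends in both subunits came from the GC content and length correction, under which the median of all genes tested was 0.0188. With a replicate block, 0 members were called. Over all genes 118 were then higher and 300 lower, against 121 and 283 in the main fit. The replicate numbers did not pair the libraries (correlations of deviations -0.0399, -0.00449 and 0.0176). With the block, 0 genes were called in the lists of genes that act with the mitoribosome and of regulators. Counts over all genes depended on the setting: 210 higher and 439 lower without a filter, 176 and 347 with the DESeq2 Wald test, 480 and 450 after the GC content and length correction, 44 and 116 without untreated replicate 3, and 269 and 487 without doxycycline replicate 2.

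Regulators called higher numbered 1 without a filter (Pprc1), 2 after the GC content and length correction and 0 to 1 when single libraries were left out. Assembly and rRNA modification genes called higher numbered 2 after that correction and 0 to 1 without single libraries, and translation factors numbered 1 after the correction. Signs turned in 10 members under alternatives that kept all libraries and in 38 when single libraries were left out; among the genes named by rule, these values follow. Mrps16 was -0.0053 with upper quartile factors, -0.0083 with library size only, -0.0017 without a filter and -0.0111 with limma voom. With library size only, Mrpl52 was -0.0010 and Mrpl30 -0.0020, and after the GC content and length correction Mrpl42 was 0.0329 and Mrps22 0.0089. The median of all genes tested was -0.0074 with library size only and 0.0188 after that correction, against 0.0025 in the main fit. When single libraries were left out, Mrps6 ranged from -0.1337 to 0.015, Mrps15 from -0.1232 to 0.0107, Mrps10 from -0.0268 to 0.0754, Mrps12 from -0.12 to 0.1367, Mrps16 from -0.09 to 0.0543, Mrps22 from -0.0797 to 0.0157, Mrpl30 from -0.0535 to 0.0615, Mrpl42 from -0.1032 to 0.0512 and Mrpl52 from -0.0602 to 0.0916. The cause of these changes was not tested. With 3 libraries a group, differences smaller than the printed intervals could not be told from no change.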
